A study of Homo sapiens with 6 samples.

Results

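The 9 genes described here place, remove or read methyl groups on DNA: the methyltransferase genes DNMT1, DNMT3A and DNMT3B, the dioxygenase genes TET1, TET2 and TET3, and the reader genes UHRF1, UHRF2 and MBD2. They were taken by name, and every probe set that the array annotation assigns to one of them alone was included, which gave 19 probe sets of the 54675 on the array. All 9 genes, of 19775 genes with a probe set of their own, were represented. Expression was measured in HEK293 cells, an established line derived from human embryonic kidney, 72 h after transfection with a BAHD1 siRNA (3 biological replicates) or a control siRNA (3 biological replicates). Both groups received their siRNA with the same lipid transfection reagent. Each sample was hybridised to 1 array, and the deposited value is a linear signal per probe set, with a median per array of 17.5 to 19.5 in BAHD1 siRNA arrays and 15.9 to 17.9 in control siRNA arrays. The labels call the samples biological replicates without saying whether they came from separate cultures, so p-values measure the spread between these 6 samples.

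DNA methylation in mammals sits mostly on cytosines followed by guanine (CpG). DNMT3A and DNMT3B set new marks, and DNMT1 copies them onto the new strand after replication, guided by UHRF1, which binds hemimethylated DNA. The TET enzymes oxidise 5-methylcytosine and so start its removal, and MBD2 binds methylated CpG and brings the NuRD repressor complex to it. BAHD1, named for its bromo-adjacent homology domain, helps to build heterochromatin. The question addressed here is whether transcripts of the methylation machinery differ when BAHD1 is targeted.

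The promoters of DNMT1, UHRF1 and TET1 are shown first, because the brightest probe sets of these genes gave the smallest p-values in the intensity-trend fit defined below. Each is the RefSeq sequence on build GRCh38.p14, 5′ to 3′ on the gene's strand, from 250 bases before the annotated start to 30 bases after it. Where RefSeq lists several starts, the one furthest upstream was taken. Which start HEK293 cells use was not examined. Capitals mark a match to 1 of 4 words of the E2F type, TTTCCCGC, TTTCGCGC, TTTGCCGC or TTTGGCGC, searched on both strands. E2F factors are regulators of genes that act at the start of DNA replication. DNMT1 lies at chr19:10194924-10195203 on the minus strand, UHRF1 at chr19:4909251-4909530 on the plus strand and TET1 at chr10:68560087-68560366 on the plus strand.
DNMT1: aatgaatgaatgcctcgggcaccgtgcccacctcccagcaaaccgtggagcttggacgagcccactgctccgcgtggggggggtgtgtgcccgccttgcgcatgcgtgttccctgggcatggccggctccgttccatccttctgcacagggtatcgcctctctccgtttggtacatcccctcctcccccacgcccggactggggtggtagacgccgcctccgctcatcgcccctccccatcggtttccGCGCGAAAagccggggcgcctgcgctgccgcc
UHRF1: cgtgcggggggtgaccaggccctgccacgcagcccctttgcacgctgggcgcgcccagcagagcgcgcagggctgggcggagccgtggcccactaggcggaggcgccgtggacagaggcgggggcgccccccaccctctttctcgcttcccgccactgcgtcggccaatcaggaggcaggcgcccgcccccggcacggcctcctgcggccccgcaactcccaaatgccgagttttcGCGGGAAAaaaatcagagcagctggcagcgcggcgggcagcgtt
TET1: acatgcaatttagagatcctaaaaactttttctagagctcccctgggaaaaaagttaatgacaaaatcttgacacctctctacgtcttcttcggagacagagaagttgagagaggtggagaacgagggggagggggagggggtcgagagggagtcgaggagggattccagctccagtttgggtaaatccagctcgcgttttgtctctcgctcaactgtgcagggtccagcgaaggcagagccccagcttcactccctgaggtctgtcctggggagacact
In DNMT1 the match, TTTCGCGC on the opposite strand, spans the start, with its first base at -2 and its last at 6. In UHRF1 it is TTTCCCGC on the opposite strand, between -14 and -7. A second UHRF1 start carries TTTCGCGC between -160 and -153. Over all 20 RefSeq start windows of the 9 genes, each 300 bases long (250 before and 50 after the start), 3 held such a word, all in DNMT1 or UHRF1, and none was found in the windows of the other 7 genes. Of all 35116 windows in the table, 3.31% held one. The number of CpG in these windows ran from 3 in the 1 DNMT3B window to 46 in DNMT3A and UHRF1, against a median of 14 over all windows. Starts outside these windows were not examined. The upstream windows shown hold 30 CpG for DNMT1, 36 for UHRF1 and 10 for TET1, counted over the whole 300 bases.

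The targeted gene was lower on average but did not pass the test. BAHD1 has 1 probe set, with signals of 36.6, 46.8 and 41.2 in BAHD1 siRNA arrays and 62.9, 55.7 and 46.7 in control siRNA arrays, so the groups just overlapped. The level was 76.0% of the control level, and the log2 difference of -0.40 (95% interval -0.75 to -0.038) did not pass over all probe sets (limma, adjusted p = 0.251 in both fits below). Of 8 genes commonly seen in HEK293 cells, 7 were above the median signal of 17.9 on all 6 arrays, and LHX1 was above it on 1. Their summed signal was 4324 to 4600 in BAHD1 siRNA arrays and 4622 to 5089 in control siRNA arrays, with no overlap. VIM made up most of this sum, at 2652.6 to 2806.4 in BAHD1 siRNA arrays and 3105.6 to 3679.3 in control siRNA arrays. The sum therefore does not stand for the other genes: among those tested, 5 were higher in BAHD1 siRNA arrays and 2 lower. Of the 7 that were tested, 3 (42.9%) were called in the intensity-trend fit of limma described below, against 5.52% of all genes. These were the filament genes VIM, lower at a log2 difference of -0.32 (adjusted p = 0.0318), and NEFM and NEFL, higher at 0.58 and 0.37 (adjusted p = 0.0473 and 0.0457). The one-prior fit called none of the 7. Of 10 genes that define other cell types, 5 (ALB, APOA1, PTPRC, INS and MYH6) were below the median signal on all 6 arrays and none was above it on all 6. Their summed signal was 90 to 126 in BAHD1 siRNA arrays and 73 to 118 in control siRNA arrays. The bacterial poly-A RNAs spiked in before labelling were higher in BAHD1 siRNA arrays in all 24 probe sets, with a median ratio of 1.49 to control siRNA arrays, and for 18 hybridisation controls the median ratio was 0.921. Their part in the results below was not tested. Small differences also depended on brightness: the median log2 difference was -0.035 in the brightest quartile of tested probe sets and 0.11 in the dimmest. In whole-culture RNA, fewer cells with a transcript and less of it per cell cannot be told apart.

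Of the 19 probe sets, 14 passed the filter on dim signals and were tested, at least 1 for each gene, and 5 were too dim. The 27458 probe sets that passed the filter were fitted together in limma, in the planned fit with a single variance prior (the one-prior fit) and in an alternative, called the intensity-trend fit. The prior of the intensity-trend fit varies with mean signal and is estimated robustly, allowing for outlying variances. Fold changes are differences of log2(signal + 1), BAHD1 siRNA minus control siRNA. The one-prior fit called 0 of the 14 at an adjusted p under 0.05, and 4 had an unadjusted p under 0.05. It called 0% of all 27458 probe sets, with 17.6% under 0.05 unadjusted. The intensity-trend fit called 2 of the 14, DNMT1 higher and TET1 lower, against 4.45% of all probe sets (2.17% higher and 2.28% lower). In that fit 3 of the 14 had an unadjusted p under 0.05, against 20.9% of all probe sets. The verbs rose and fell are used below only of probe sets called in the intensity-trend fit. The groups did not overlap in 5 of the 14 (35.7%), 2 higher and 3 lower, against 25.6% of all tested probe sets (13.4% higher and 12.2% lower). The median log2 difference of the 14 was 0.078, against 0.013 for all tested probe sets, and the median size was 0.14 against 0.17. By this measure the 14 did not differ more than the array at large.

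**Figure D1:**
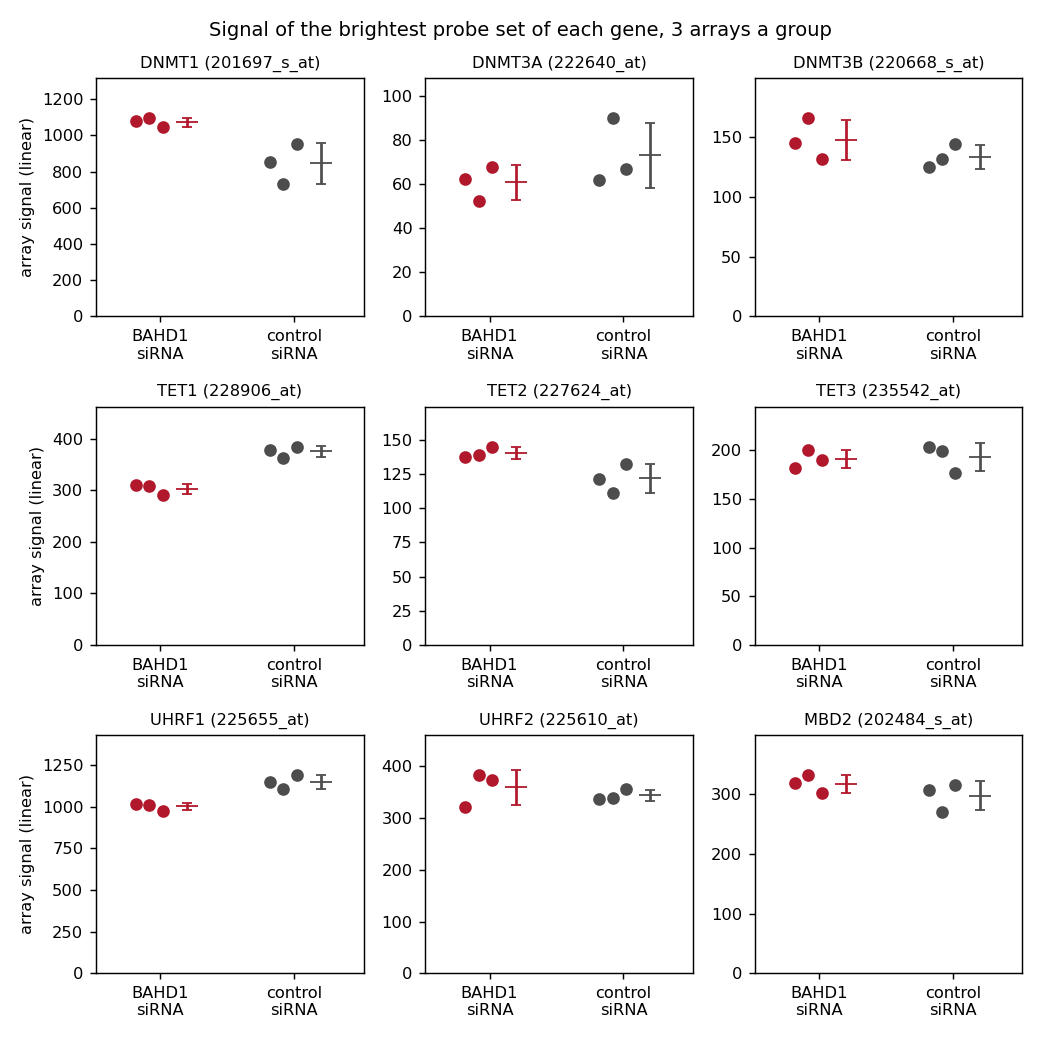
Linear array signal of the brightest probe set of each of the 9 genes, with 1 point per array, BAHD1 siRNA (red) left and control siRNA (grey) right, and bars for the mean ± SD of 3 arrays. DNMT1 and TET2 sit higher in all 3 BAHD1 siRNA arrays and TET1 and UHRF1 lower, and the groups of the other 5 genes overlap. The share without overlap is 44.4% of these 9 genes, against 28.2% of all genes by their brightest tested probe set.

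DNMT1, the maintenance methyltransferase, rose in the intensity-trend fit. Its single probe set had signals of 1079.5, 1095.7 and 1047.0 in BAHD1 siRNA arrays, against 850.7, 730.9 and 954.2 in control siRNA arrays. The lowest BAHD1 siRNA value lay above the highest control value, and the control arrays were the more spread. The level was 128% of the control level, a log2 difference of 0.35 with an SE of 0.087 (limma intensity-trend fit, adjusted p = 0.0395). In the one-prior fit the SE was 0.12 and the adjusted p 0.219, and the exact two-sided permutation p was 0.1, the smallest that 3 against 3 samples allow. The call held without control siRNA replicate 3, where the difference was 0.45 (adjusted p = 0.0152). It was lost when any other single array was left out (intensity-trend fit): the adjusted p was 0.0697, 0.128 and 0.102 without BAHD1 siRNA replicate 1, 2 and 3, and 0.0971 and 0.126 without control siRNA replicate 1 and 2. The difference ran from 0.25 to 0.45 over these settings, lowest without control siRNA replicate 2. It was also lost when dim probe sets were kept in the table (adjusted p = 0.0846).

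The 3 genes whose profile over the 6 arrays lay nearest to that of DNMT1, out of 23545 other tested probe sets of 1 gene, were TAP2, DROSHA and B4GALT7. The measure was the root mean square difference of log2 profiles, each centred on its own mean, and was 0.0378, 0.0412 and 0.0434. TAP2 transports peptides for MHC class I, DROSHA cuts primary microRNA transcripts and B4GALT7 takes part in proteoglycan synthesis. Their log2 differences were 0.31, 0.31 and 0.36. Values near that of DNMT1 follow from the choice, since the profiles compared include the difference between the groups.

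UHRF1, which brings DNMT1 to newly replicated DNA, was lower in all 3 BAHD1 siRNA arrays but passed in neither fit. Its 1 probe set had signals of 1016.3, 1010.7 and 977.1 in BAHD1 siRNA arrays, against 1146.8, 1108.5 and 1189.8 in control siRNA arrays. The groups did not overlap and each was tight. The log2 difference was -0.20 with an SE of 0.063 in the intensity-trend fit (limma, adjusted p = 0.0973) and an SE of 0.078 in the one-prior fit (adjusted p = 0.274). The median of the brightest quartile of probe sets, to which UHRF1 and DNMT1 both belong, was -0.035. After quantile normalisation the UHRF1 difference was -0.18.

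UHRF2, a paralogue of UHRF1 that shares its domain layout, had signals of 321.5, 383.1 and 372.9 in BAHD1 siRNA arrays and 336.8, 338.3 and 355.7 in control siRNA arrays. The groups overlapped, with both the lowest and the highest value among the BAHD1 siRNA arrays. The log2 difference was 0.06 (95% interval -0.13 to 0.25 in the intensity-trend fit, limma adjusted p = 0.74).

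The de novo methyltransferase genes showed no call. DNMT3B, with 1 probe set, had signals of 144.9, 165.9 and 132.0 in BAHD1 siRNA arrays and 124.7, 131.4 and 144.5 in control siRNA arrays, which overlapped. Its log2 difference was 0.14 (95% interval -0.12 to 0.40, limma intensity-trend fit, adjusted p = 0.539). DNMT3A was read by 3 tested probe sets, all dimmer. The brightest, 222640_at, had signals of 62.4, 52.3 and 67.7 in BAHD1 siRNA arrays and 62.0, 89.9 and 67.0 in control siRNA arrays, a log2 difference of -0.25 (95% interval -0.63 to 0.13, intensity-trend fit). Much of this came from 1 control array, since without control siRNA replicate 2 the difference was -0.091. The other DNMT3A probe sets, 218457_s_at and 244428_at, were at 0.11 and 0.14, so the 3 did not share a sign. Their signals lay between 17.8 and 30.5 over all 6 arrays, in the dimmest quartile, whose median log2 difference was 0.11. After quantile normalisation 218457_s_at and 244428_at were at 0.0017 and 0.021, and 222640_at was at -0.31.

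TET1, a dioxygenase that binds CpG-rich DNA, fell in the intensity-trend fit in the brighter of its probe sets. That probe set, 228906_at, had signals of 310.0, 307.7 and 291.4 in BAHD1 siRNA arrays, against 378.5, 363.6 and 385.1 in control siRNA arrays. The groups were well apart and both were tight. The level was 80.7% of the control level, a log2 difference of -0.31 with an SE of 0.078 (limma intensity-trend fit, adjusted p = 0.0431; 0.171 in the one-prior fit), and the exact two-sided permutation p was 0.1. With any 1 array left out the difference stayed between -0.33 and -0.28 but the call was lost each time (adjusted p = 0.0591 to 0.155, intensity-trend fit), and it was lost with dim probe sets kept (adjusted p = 0.101). With a stricter filter on dim signals the one-prior fit called it too (adjusted p = 0.0391), while DNMT1 was at 0.0618 there.

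The other TET1 probe set, 214862_x_at, had no call. Its signals were 111.1, 147.2 and 106.6 in BAHD1 siRNA arrays and 96.4, 140.1 and 98.2 in control siRNA arrays, with replicate 2 highest in both groups. The log2 difference was 0.13 (95% interval -0.23 to 0.49, intensity-trend fit). The suffix x marks probes that can also bind other transcripts. The difference between the 2 probe sets, taken within each array, was 1.32 ± 0.23 in BAHD1 siRNA arrays and 1.76 ± 0.34 in control siRNA arrays on the log2 scale (SD, n = 3 each), and these overlapped (exact two-sided permutation p = 0.3, 1 of 3 pairs of probe sets compared in this way). The groups did not overlap for TET2 227624_at minus 235461_at or for DNMT1 minus UHRF1 (exact two-sided permutation p = 0.1 each). They differed there by 0.63 and 0.55. In both pairs the single probe sets lay apart in opposite directions, so this lack of overlap was fixed in advance.

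**Figure D2:**
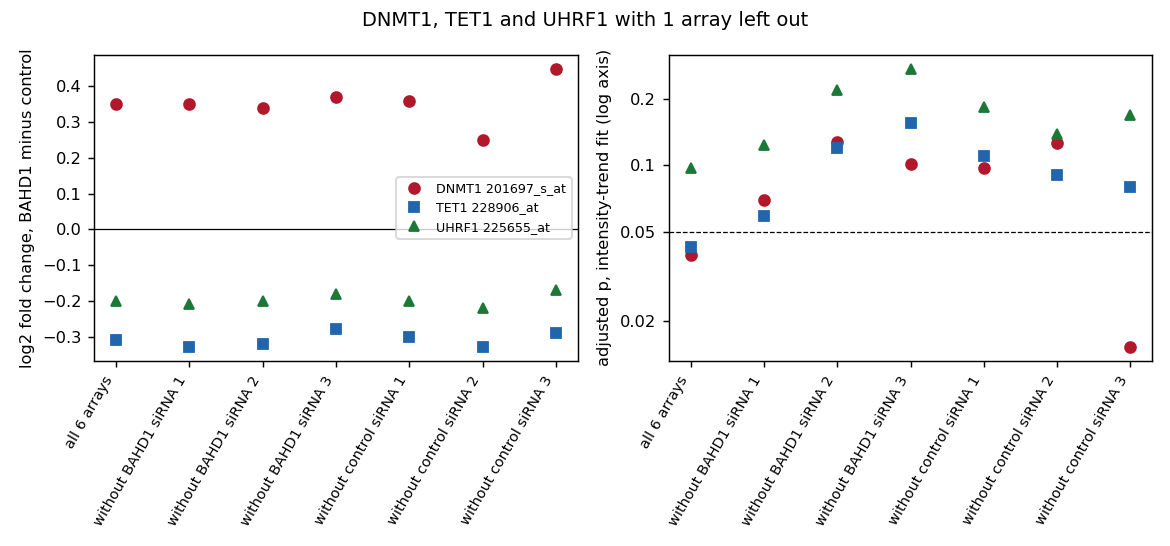
DNMT1, TET1 (228906_at) and UHRF1 with all 6 arrays and with each array left out in turn, as log2 fold change (left) and as adjusted p in the intensity-trend fit on a log axis (right), where the dashed line is 0.05. The fold changes keep their sign throughout, whereas the adjusted p is above 0.05 in all but 1 of the settings with an array left out, DNMT1 without control siRNA replicate 3.

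TET2, the dioxygenase often mutated in blood cancers, had probe sets whose differences were of opposite sign, and neither passed. The brightest, 227624_at, had signals of 137.4, 138.8 and 145.2 in BAHD1 siRNA arrays, against 121.8, 111.1 and 132.7 in control siRNA arrays, and was higher in all 3. Its log2 difference was 0.21 with an SE of 0.11 (limma intensity-trend fit, adjusted p = 0.318). The dim probe set 235461_at had 19.4, 16.8 and 15.8 in BAHD1 siRNA arrays, against 25.0, 25.5 and 20.4 in control siRNA arrays, and was lower in all 3. These signals lie around the filter level of 17.9. The log2 difference was -0.42 with an SE of 0.13 in the one-prior fit (adjusted p = 0.196) and of 0.32 in the intensity-trend fit (adjusted p = 0.488). The second value rests on signals with no stated background.

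TET3, the third member of the dioxygenase family, had no call. Its brightest probe set, 235542_at, had signals of 182.1, 200.6 and 190.5 in BAHD1 siRNA arrays and 203.9, 198.9 and 176.7 in control siRNA arrays, a log2 difference of -0.014 (95% interval -0.23 to 0.20, intensity-trend fit). A second, 214754_at, was at -0.035 with a wider interval of -0.54 to 0.48, and 1 BAHD1 siRNA array stood above the others at 55.8, where the remaining 5 were between 31.0 and 43.7.

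MBD2, the reader that recruits NuRD, had signals of 319.0, 332.3 and 302.3 in BAHD1 siRNA arrays and 307.7, 269.8 and 316.3 in control siRNA arrays in its only tested probe set, 202484_s_at. The groups overlapped, and the log2 difference was 0.095 (95% interval -0.097 to 0.29, limma intensity-trend fit, adjusted p = 0.581). The other 3 MBD2 probe sets were too dim to test, with signals between 4.3 and 18.9. The remaining untested probe sets, 1569385_s_at of TET2 and 1554641_a_at of TET3, had signals of 5.8 to 15.2 and 1.1 to 15.5.

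**Figure D3:**
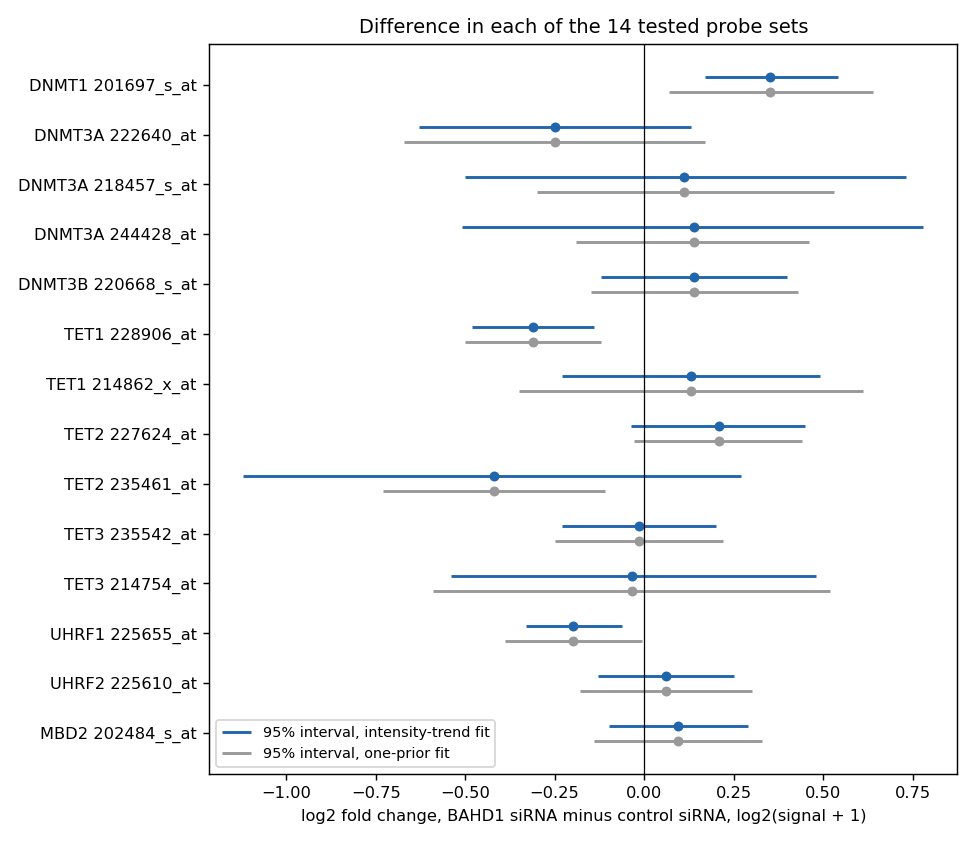
Log2 fold change of each of the 14 tested probe sets, BAHD1 siRNA minus control siRNA on the log2(signal + 1) scale, with 95% intervals from the intensity-trend fit (blue) and the one-prior fit (grey). The intervals of DNMT1, TET1 228906_at and UHRF1 exclude 0 in both fits before adjustment, and that of TET2 235461_at only in the one-prior fit.

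The wider methylation machinery was examined through lists, with each gene represented by its brightest tested probe set. Of 25 measured genes that assist, remove or read DNA methylation, 1 rose, none fell and 24 did not pass in the intensity-trend fit, and the one-prior fit called 0. The median log2 difference was 0.0056, against 0.025 for all 12529 genes, and 4% were called against 5.52% of all genes. The list held 30 genes, and those without a tested probe set of their own are not counted. These counts cover the brightest probe sets only. Other tested probe sets of the measured genes differed more, from -0.83 in MBD3 to 1.98 in GADD45B. The one-prior fit called neither, as it called 0% of all tested probe sets. Their signals and their result in the intensity-trend fit were not examined here, so these values are not read as changes. The brightest probe sets of MBD3 and GADD45B were at -0.04 and 0.11. The gene that rose was IDH1, the cytosolic isocitrate dehydrogenase that makes 2-oxoglutarate, a cosubstrate of the TET enzymes. IDH1 had signals of 838.7, 722.1 and 598.4 in BAHD1 siRNA arrays, against 523.6, 517.7 and 554.9 in control siRNA arrays. All BAHD1 siRNA values were higher, though widely spread, and the log2 difference was 0.42 with an SE of 0.10 (limma intensity-trend fit, adjusted p = 0.0374; 0.216 in the one-prior fit). Its other probe set was at 0.28. The IDH1 call held in 1 of 6 settings with an array left out (adjusted p = 0.0223 to 0.119) and was lost with dim probe sets kept (adjusted p = 0.0825).

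Of the 11 NuRD subunit genes, all measured, 1 fell, none rose and 10 did not pass in the intensity-trend fit, with a median of 0.018, and the one-prior fit called 0. This is 9.09% of the list against 5.52% of all genes, and so 1 gene near the background share. The one that fell was RBBP4, a histone chaperone shared by NuRD and other complexes. RBBP4 had signals of 1310.5, 1187.0 and 1158.7 in BAHD1 siRNA arrays, against 1461.7, 1437.0 and 1627.8 in control siRNA arrays, in probe set 217301_x_at, with no overlap. As for TET1 214862_x_at, the suffix x marks probes that can also bind other transcripts. The log2 difference was -0.31 with an SE of 0.073 (limma intensity-trend fit, adjusted p = 0.0357; 0.206 in the one-prior fit). The other 5 RBBP4 probe sets ran from -0.21 to 0.37 and none was called, and the call held in 1 of 6 settings with an array left out (log2 difference -0.36 to -0.25, adjusted p = 0.026 to 0.139) and was lost with dim probe sets kept (adjusted p = 0.0744).

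A further list held genes of one-carbon metabolism around the methyl donor S-adenosylmethionine, not all of which supply it. It showed no call in either fit among 10 measured, 5 higher and 5 lower, with a median of -0.013. The smallest p-values belonged to MTR (methionine synthase), MAT2B (a regulatory subunit of methionine adenosyltransferase) and SHMT2 (mitochondrial serine hydroxymethyltransferase), at log2 differences of 0.19, -0.12 and -0.15. Their adjusted p was 0.193, 0.301 and 0.323 in the intensity-trend fit of limma. Germline genes that DNA methylation is known to keep silent in somatic cells were mostly dim in both groups: of 15 with a probe set of their own, 1, MAGEA1, passed the filter, with signals of 32.0, 35.1 and 21.4 in BAHD1 siRNA arrays and 26.5, 32.3 and 18.8 in control siRNA arrays, which overlapped. Its log2 difference was 0.19 (limma intensity-trend fit, adjusted p = 0.764). DNA methylation itself was not measured.

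**Figure D4:**
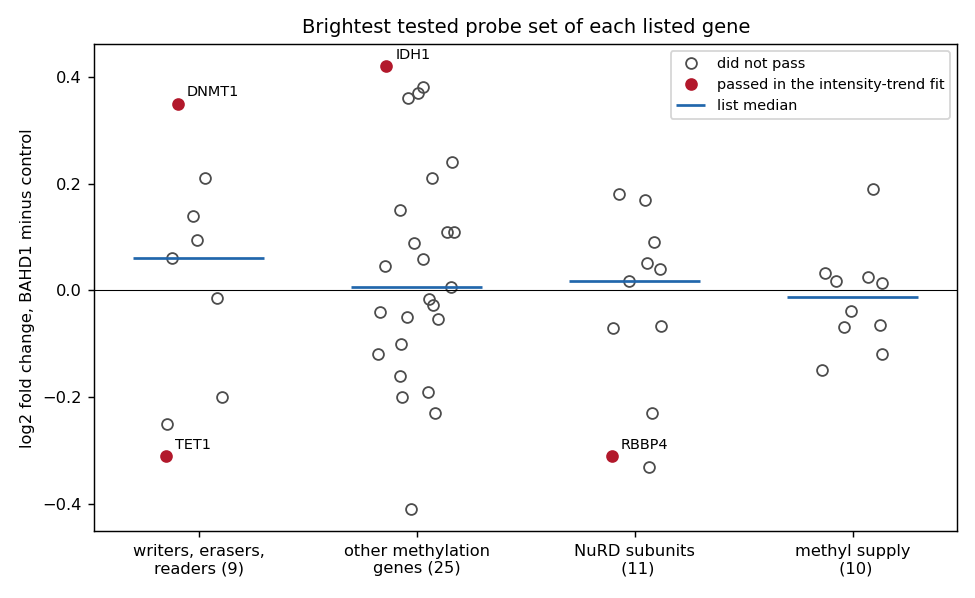
Log2 fold change, BAHD1 siRNA minus control siRNA, of the brightest tested probe set of each gene in 4 lists, with filled points for genes called in the intensity-trend fit and a blue line at each list's median. DNMT1, TET1, IDH1 and RBBP4 are the called genes, and the 4 medians lie between -0.013 and 0.06.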

How the data were processed

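RNA of 6 HEK293 samples was measured on 1 array each. The deposited table holds an intensity per probe set on a linear scale with 1 decimal. After trimming 2% of values at either end, each array averaged 100, so arrays were scaled by 1 factor each. GCOS and GCRMA are both listed, without roles, per the submitters' processing notes; the one that made the table is not given in these sources. Samples were grouped, and replicates numbered, by their titles.

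The 62 control probe sets were left out. A probe set was kept if above the median signal (17.9) in at least 3 of 6 arrays, which kept 27458, and log2(signal + 1) was fitted in R 4.3.3 with limma 3.58.1 (lmFit, eBayes, no covariates), with Benjamini-Hochberg adjustment over all kept probe sets and a threshold of 0.05. The one-prior fit is the design's; the intensity-trend fit (eBayes with trend and robust) was a listed alternative and is given beside it. The number of arrays limits the precision. Probe sets were named by the platform annotation, with 0 symbols updated through RefSeq. The 9 genes, the lists and the fits were chosen with earlier results of these data known. Named genes were every probe set of the 9 genes, BAHD1, genes of the 4 other methylation-related lists called in either fit or, where none was called, the 3 smallest p-values of the list, and the 3 nearest profiles to DNMT1. The fits were tested on simulated data. Same-numbered samples of the groups correlated in their deviations at 0.01 to 0.024, so the numbers were not taken as pairs. Alternatives were a replicate block, other filters, scalings and pseudocounts, array weights and leaving out each array.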

Additional observations from a re-analysis of the deposited data

Results flagged for a closer look

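The 24 spike-in probe sets for bacterial transcripts with a poly-A tail, outside the comparison of human genes, had a higher signal in BAHD1 siRNA arrays, with a median log2 difference of 0.58 against control siRNA arrays. Their mean log2 signal per array was 9.02 to 9.32 in BAHD1 siRNA arrays and 8.55 to 8.76 in control siRNA arrays. They are listed because they carry a signal above the control level in data not used for the results.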

How the results depend on the processing

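Over all probe sets the one-prior fit made 0 calls, and also with the replicate block, no filter, quantile normalisation, centred medians, log2(signal + 16) or array weights. It made 1147 calls with the stricter filter (above the 75th percentile), 1 of them among the 14 probe sets of the 9 genes (TET1). The intensity-trend fit made 1221 calls, 2 of them in the 9 genes (DNMT1 and TET1). These were 1228 and 2 after quantile normalisation, 1319 and 2 on log2(signal + 16), and 398 and 0 with no filter. With the replicate number as a block it made 1629 calls, again with DNMT1 (adjusted p = 0.0295) and TET1 (adjusted p = 0.0417) among them; the numbers do not mark shared batches in the labels. With 1 array left out the one-prior fit made 0 to 4 calls overall and 0 in the 9 genes, and the intensity-trend fit 1132, 186 and 177 without BAHD1 siRNA replicate 1, 2 and 3 and 295, 279 and 1174 without control siRNA replicate 1, 2 and 3, with 0 to 1 in the 9 genes. Of 331 comparisons of single log2 differences with their value in the one-prior fit, 303 kept their sign and their side of the threshold, 10 kept their sign and passed, and 18 changed sign, all with 1 array left out. The sign changes were in 4 probe sets, whose range with 1 array left out was -0.025 to 0.20 for DNMT3A 218457_s_at (-0.015 without BAHD1 siRNA replicate 1), -0.014 to 0.30 for TET1 214862_x_at, -0.077 to 0.026 for TET3 235542_at (0.02 without BAHD1 siRNA replicate 1 and 0.0083 without control siRNA replicate 2) and -0.29 to 0.13 for TET3 214754_at (0.059 without BAHD1 siRNA replicate 2 and 0.029 without control siRNA replicate 3). The causes were not tested. Signals near the filter level have no stated background.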
